A study of Mus musculus with 4 samples.

Results

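Independent lincRNA promoters were taken here as those of all autosomal GENCODE M21 genes of the type lincRNA (long intergenic non-coding RNA) whose every transcription start site (TSS) lies over 5000 bp from any protein-coding TSS. The rule uses the annotation alone. It took 4497 of the 5209 autosomal lincRNA genes, among 51229 autosomal genes of all types, and the 4497 genes had 6187 TSSs. H3K4me3 had been mapped by chromatin immunoprecipitation sequencing (ChIP-seq) in gastrocnemius, the large calf muscle, of adult female B6CASTF1/J mice aged 2 months, an F1 hybrid strain from a cross of C57BL/6J with CAST/EiJ. Of the 4 libraries, 2 were technical libraries of pool E (biological replicate 1) and 2 of pool F (biological replicate 2), and each pool had been made from 2 biosamples. With a common tissue, sex, age and strain throughout, there were no conditions to contrast, and no test was made. The peak lists hold no read counts, so depth is unknown, and they do not separate the parental alleles.

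H3K4me3, the trimethylated form of a lysine in the tail of histone H3, marks the nucleosomes around active and poised start sites and is broadest and strongest at CpG-rich promoters. LincRNA genes are transcribed by RNA polymerase II, and many are spliced, expressed at low levels and restricted to few cell types. In skeletal muscle, lincRNAs such as Dubr and the host transcript of miR-206 and miR-133b are known from work on myoblast differentiation, and Neat1 and Malat1 are abundant nuclear RNAs of many tissues.

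Promoter windows of 6 of these genes show the range from CpG-rich to CpG-poor. Each runs from 250 bases before to 50 bases after a TSS, 5′ to 3′ in the direction of transcription. Sequences are those of RefSeq for GRCm38.p6, the build also called mm10. The TSS is the one that the strongest peak covers or lies nearest to, or that at the 5′ end of an unmarked gene. For Dubr, Neat1 and 2310065F04Rik it is not the 5′ end, so bases before it also lie within the gene. Relative to that TSS, the Neat1 gene begins at -219 bp and 2310065F04Rik at -3239 bp. 6720427I07Rik (chr13:48546451-48546750, minus strand) had the highest signal value of the set, and Dubr (chr16:50732634-50732933, minus strand) the highest among genes over 100000 bp from a coding TSS. Neat1 (chr19:5845210-5845509, minus strand) had the widest domain. Gm28653 (chr1:20669632-20669931, plus strand) is the gene that holds Mir206 and Mir133b, and 2310065F04Rik (chr11:67116792-67117091, minus strand) lies in the skeletal myosin heavy chain cluster. 1700025L06Rik (chr7:46349324-46349623, minus strand), the neighbour of Myod1, had no peak in any list. Capitals mark CpG dinucleotides.
6720427I07Rik: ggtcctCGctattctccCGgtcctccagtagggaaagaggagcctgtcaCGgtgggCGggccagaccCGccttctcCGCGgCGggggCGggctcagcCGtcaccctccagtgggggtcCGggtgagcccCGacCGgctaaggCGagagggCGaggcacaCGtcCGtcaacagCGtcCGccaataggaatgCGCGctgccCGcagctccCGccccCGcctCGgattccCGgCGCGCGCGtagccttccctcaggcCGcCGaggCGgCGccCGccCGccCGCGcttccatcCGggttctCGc
Dubr: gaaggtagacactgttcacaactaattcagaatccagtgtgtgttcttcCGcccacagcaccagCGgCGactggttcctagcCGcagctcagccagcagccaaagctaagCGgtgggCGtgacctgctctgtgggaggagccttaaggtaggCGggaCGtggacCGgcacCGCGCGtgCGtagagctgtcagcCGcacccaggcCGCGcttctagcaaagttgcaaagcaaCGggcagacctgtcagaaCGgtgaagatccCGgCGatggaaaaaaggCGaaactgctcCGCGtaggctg
Neat1: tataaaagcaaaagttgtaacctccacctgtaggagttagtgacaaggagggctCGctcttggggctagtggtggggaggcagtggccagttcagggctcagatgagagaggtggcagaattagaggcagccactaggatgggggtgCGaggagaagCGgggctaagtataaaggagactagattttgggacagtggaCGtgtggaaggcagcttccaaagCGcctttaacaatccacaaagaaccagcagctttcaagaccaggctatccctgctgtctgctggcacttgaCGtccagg
Gm28653: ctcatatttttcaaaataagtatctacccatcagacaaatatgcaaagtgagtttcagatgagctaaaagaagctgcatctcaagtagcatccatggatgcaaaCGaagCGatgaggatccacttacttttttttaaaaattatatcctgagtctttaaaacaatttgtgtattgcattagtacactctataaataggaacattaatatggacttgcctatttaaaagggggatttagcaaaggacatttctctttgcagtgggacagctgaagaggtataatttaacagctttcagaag
2310065F04Rik: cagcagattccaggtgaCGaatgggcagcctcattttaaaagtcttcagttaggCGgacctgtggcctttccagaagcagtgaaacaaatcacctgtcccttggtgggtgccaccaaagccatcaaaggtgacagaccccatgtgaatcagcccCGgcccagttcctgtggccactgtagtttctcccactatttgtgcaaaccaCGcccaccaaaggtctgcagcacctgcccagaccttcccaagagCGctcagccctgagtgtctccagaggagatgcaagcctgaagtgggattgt
1700025L06Rik: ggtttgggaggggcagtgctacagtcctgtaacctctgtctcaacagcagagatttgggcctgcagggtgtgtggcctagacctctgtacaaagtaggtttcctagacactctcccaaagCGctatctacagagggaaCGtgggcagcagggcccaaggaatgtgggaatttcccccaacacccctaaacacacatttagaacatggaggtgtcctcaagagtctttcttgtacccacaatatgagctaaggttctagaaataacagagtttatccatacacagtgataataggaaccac
The 6720427I07Rik window held 40 CpG dinucleotides and that of Dubr 23. Neat1 had 6, 2310065F04Rik 5, and Gm28653 and 1700025L06Rik 2 each. These counts cover the printed windows only. Over 1000 bp at any TSS, the highest CpG ratio, observed over expected, was 0.520 for 1700025L06Rik, which has 3 TSSs, and 0.240 for 2310065F04Rik.

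Most independent lincRNA genes carried no H3K4me3 peak. Marked genes were those with a peak at most 1000 bp from a TSS. In the replicated list, 731 of 4497 were marked (16.3%, 95% Wilson interval 15.2 to 17.4%), against 38.0% of all autosomal genes and 70.0% of autosomal protein-coding genes. In the pool E list 740 were marked (16.5%), against 38.0% of all genes and 70.0% of coding genes, and in the pool F list 687 (15.3%), against 37.5% and 69.6%. Of the other 712 lincRNA genes, those with a TSS within 5000 bp of a coding TSS, 439 (61.7%, 58.0 to 65.2%) were marked in the replicated list. Intervals cover counting error only, and genes that share a peak are not independent of each other. In bulk tissue, fewer cells with the mark and less of the mark per cell cannot be told apart.

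The labelled tissue was checked on start sites of cell type markers. All 8 skeletal muscle fibre genes looked up (among them Ckm, Acta1 and Myh4) were marked, as were all 4 endothelial, 4 fibroblast and 4 macrophage genes, the last with signal values of only 6.02 to 8.02. None of 4 hepatocyte genes and 1 of 4 neuron genes was marked. The part of each cell type in the peaks at lincRNA genes was not tested.

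On either side of the 5000 bp threshold the marked shares were alike, though from few genes. Of the genes inside the rule by less than 1000 bp, 17 of 56 (30.4%, 19.9 to 43.3%) were marked. Of those outside it by less than 1000 bp, 26 of 80 (32.5%, 23.2 to 43.4%) were. Intervals this wide cannot exclude a step at the threshold. Nearest inside the limit were AW121686 (5002 bp, signal value 3.84) and the unmarked Gm37552 (5027 bp) and Gm44658 (5030 bp). Nearest outside were Gm15729 (4987 bp, unmarked), Mir142hg (4964 bp, 9.07) and Gm26669 (4960 bp, 59.1).

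Among independent lincRNA genes the marked share rose with CpG class, and in each class it was below that of coding genes. Classes came from windows of 1000 bp at the TSSs: for the high class the CpG ratio, observed over expected, had to reach 0.75 and the GC content 55%, for the low class the ratio stayed under 0.48 in all windows, and the rest were intermediate. In the high class 42 of 49 were marked (85.7%, 73.3 to 92.9%), in the intermediate class 171 of 296 (57.8%, 52.1 to 63.3%) and in the low class 518 of 4152 (12.5%, 11.5 to 13.5%). The shares of coding genes were 99.3%, 94.3% and 25.4%, and those of the other lincRNA genes 98.5%, 94.1% and 33.2%. None of the 3 intervals reached the share of coding genes.

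**Figure D1:**
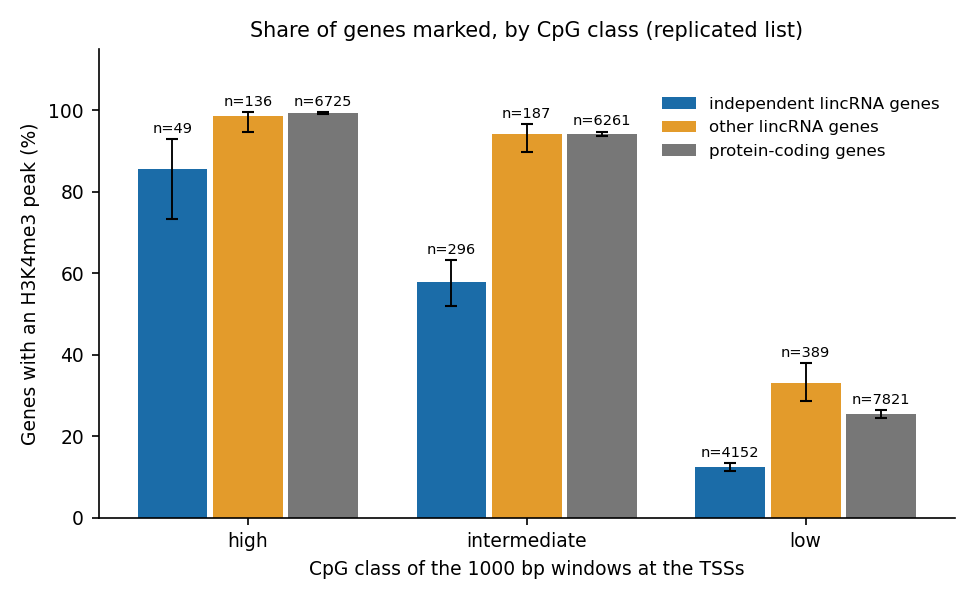
Share of autosomal genes with an H3K4me3 peak within 1000 bp of a TSS in the replicated list (y axis, percent) by CpG class (x axis), for independent lincRNA genes, other lincRNA genes and protein-coding genes; bars show the share, lines its 95% Wilson interval, and n the genes of each class. Independent lincRNA genes are at 85.7%, 57.8% and 12.5%, below both other groups in each class.

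The number of annotated TSSs bears on this comparison. Among independent lincRNA genes 79.3% had 1 TSS, against 21.2% of coding genes. With genes of 1 TSS only, 77.8% of the high class (21 of 27), 55.2% of the intermediate and 10.9% of the low class were marked, against 96.8%, 85.9% and 14.9% of coding genes. The order of the groups held in each class, and the gap was smallest in the low class.

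Despite the lower rate, most marked promoters were CpG-poor, like the set as a whole: 92.3% of the independent lincRNA genes fell in the low class, against 37.6% of coding genes. Of the 731 marked genes, 70.9% were in the low class, 23.4% in the intermediate and 5.75% in the high class. The median observed over expected CpG ratio was 0.367 at marked and 0.208 at unmarked genes, and the median GC content 49.7% and 45.3%.

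All 7 high-class genes without a peak lacked it in both pools as well. Gm10685, Gm40849, Gm4425 and Gm35279 each had a near-identical copy elsewhere in the genome. Gm26917, Gm42418 and AY036118 lie close together on chromosome 17, with Esp38 as their nearest coding gene. They had no such copy on the assembled chromosomes, and unplaced scaffolds were not searched. The part of read placement was not tested.

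The marked independent promoters had weaker and narrower peaks than coding promoters. The deposited signal value, which is the authors' own and serves here only to describe and rank peaks within a list, had a median of 9.68 (interquartile range 5.07 to 24.8, range 2.20 to 62.4). Marked coding genes had a median of 45.6 (32.2 to 54.9) and the other marked lincRNA genes 45.9 (27.7 to 54.7). Of the 731 genes, 599 (81.9%) lay below the lower quartile of coding genes, 369 (50.5%) had a value under 10, and 58 (7.93%) reached the coding median. Peaks at most 1000 bp apart were joined into domains, whose median width was 1005 bp (593.5 to 1732 bp), against 2420 bp (1749 to 3566 bp) at coding genes and 2794 bp at the other lincRNA genes.

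**Figure D2:**
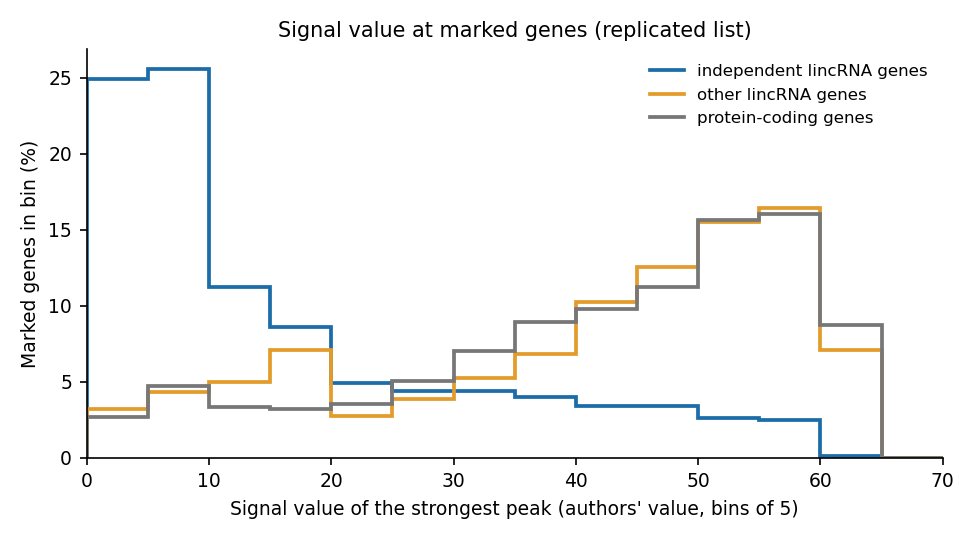
Signal value of the strongest peak within 1000 bp of a TSS in the replicated list (x axis, the authors' value, bins of 5) and the percentage of marked genes in each bin (y axis) for independent lincRNA genes, other lincRNA genes and protein-coding genes. The independent genes pile up at low values, with a median of 9.68, while the other groups peak between 50 and 60.

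Strength and width followed the CpG class. The median signal value was 43.0 in the high, 25.8 in the intermediate and 7.38 in the low class, against 51.8, 44.0 and 18.8 at coding genes. Median domain widths were 2177, 1449 and 839.5 bp. Some genes with a strong peak had no CpG-rich window at their TSSs, however. Of 88 independent genes with a signal value of at least 40, 28 (31.8%, 23.0 to 42.1%) were in the low class. The 6 highest of that class were 1810012K08Rik (58.8), Gm44238 (56.7), 0610043K17Rik (56.7), Gm44948 (56.3), B930059L03Rik (54.3) and B230312C02Rik (54.0). For the first 3, the peak was shared with another independent gene of a higher CpG class (Tmem250-ps, Lockd and E130102H24Rik), and Gm44948 lay under the domain of Nr2f2. B930059L03Rik, 10940 bp from Dync1h1, had 57.8 in pool E and 52.0 in pool F, and its peak reached no TSS of another gene. In the order named, the summits of the 6 lay 1476, 1674, 2250, -14387, 1417 and -406 bp from the nearest TSS, positive being downstream. All but the last were outside the window that sets the class, and CpG content under the peaks was not measured.

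Peaks at independent promoters also covered an annotated TSS less often and had summits farther from it. Coding genes have more annotated TSSs (90310 for 20807 genes, against 6187 for 4497). Their strongest peaks were also wider, with a median of 2261.5 bp against 918 bp. Both bear on these measures, and their part was not tested. The strongest peak covered a TSS at 469 of 731 genes (64.2%, 60.6 to 67.6%), against 95.9% of marked coding genes. By class the share was 95.2% in the high, 87.1% in the intermediate and 54.1% in the low class. The median distance from summit to the nearest TSS was 295 bp, against 163 bp at coding genes, and the summit lay downstream of the TSS in 61.8%, against 77.2%. At Gm49427, for example, the peak began 976 bp from the TSS, and at Gm28653 462 bp.

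The marked promoters were largely free of other annotated start sites. For coding start sites this follows largely from the rule, which keeps every TSS over 5000 bp from them. The 731 genes lay in 693 distinct domains. The strongest peak was shared with another independent lincRNA gene at 74 genes and reached a non-coding gene outside the set at 65, most often of the types processed transcript (16 genes) and miRNA (13). At 594 genes (81.3%, 78.3 to 83.9%) it reached no TSS of any other gene. The signal value of these 594 had a median of 8.90 and their domains measured 909 bp at the median. Among the 50 genes with the highest signal value, the peak reached no other TSS at only 27 (54.0%, 40.4 to 67.0%). The domain reached a GENCODE protein-coding TSS at 4 genes, namely Gm44946 and Gm44948 (Nr2f2) and Lockd and Gm44238 (Cdkn1b). That count was 25 with the isolation distance at 2500 bp, 0 at 10000 bp, 6 in the list of pool E and 2 in that of pool F, that is, without pool E. RefSeq places a protein-coding transcript start within reach of the peak at 43 genes, 19 of them by a curated transcript, so these depend on the annotation used.

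The 2 pools marked largely the same independent promoters. Of 770 genes marked in at least 1 pool, 657 (85.3%, 82.7 to 87.6%) were marked in both, 83 carried a peak in pool E alone, 30 in pool F alone, and 3727 had none in either. Among coding genes the share in both was 98.8%. The shared fraction followed the signal value: genes with a pool E value under 5 were marked in pool F in 61 of 124 cases (49.2%), those from 5 to 10 in 92.7%, those from 10 to 20 in 98.7% and those of 20 or more in 99.2%. In the high CpG class all 42 marked genes were marked in both pools, in the intermediate class 95.4% and in the low class 81.0%.

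**Figure D3:**
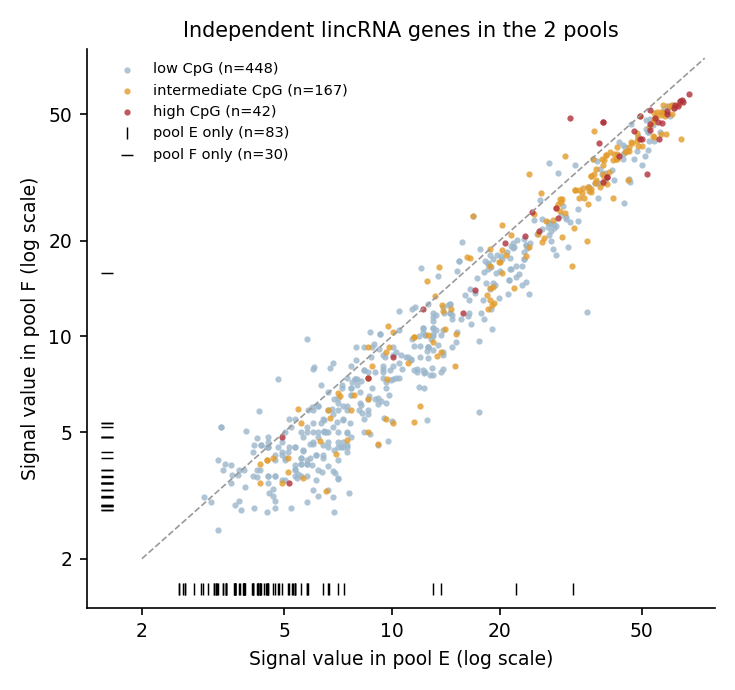
Signal value at independent lincRNA genes in pool E (x axis, log scale) and pool F (y axis, log scale), by CpG class, with ticks along the axes for genes marked in 1 pool only and a dashed line at equal values. The 657 shared genes lie along the line, mostly below it, and the ticks of single-pool genes sit mostly at low values.

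At the level of peaks, 692 of 783 pool E peaks at these genes (88.4%, 85.9 to 90.4%) were overlapped by a pool F peak, and 692 of 726 pool F peaks (95.3%, 93.5 to 96.6%) by a pool E peak. Over all autosomal peaks of the lists the shares were 82.4% and 93.8%. Of the 50 genes with the highest signal value in each pool, 40 were the same. Domains were wider in pool E at 504 of 657 shared genes (76.7%), as at coding genes (76.8%), and the median ratio of pool E to pool F width was 1.10, against 1.05 at coding genes. The pool E list was also the longer, with 42418 peaks against 39544 in pool F.

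The strongest promoters seen in 1 pool only were cases where overlapping peaks of the pools fell on either side of the 1000 bp window. The 5 highest of pool E only were 4833419O12Rik (32.1), Gm43660 (22.2), CT025671.1 (13.7), Gm36972 (13.0) and Gm20443 (7.32). For the first 4 a pool F peak overlapped the pool E peak and lay 1056, 1398, 1135 and 1132 bp from the TSS. Gm20443 had no such overlap. Highest of pool F only were 1700027J07Rik (15.8, with an overlapping pool E peak 1116 bp away), 4930401G09Rik and Gm13832 (5.34, a shared peak), 4930471G24Rik (5.17) and Gm28942 (4.83). Without the overlapped peaks, 71 genes of pool E only had signal values of at most 7.32 and 29 of pool F only of at most 5.34. Of the replicated list, 656 of 731 genes were marked in both pools and 13 in neither pool's own list.

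The strongest independent promoter was that of 6720427I07Rik on chromosome 13, the host of the let-7 genes Mirlet7a-1, Mirlet7f-1 and Mirlet7d, microRNAs known for repressing growth and cell cycle genes. Its peak at chr13:48541840-48546634 had a signal value of 62.4 in the replicated list, 67.9 in pool E and 57.7 in pool F. The domain measured 7539, 7649 and 7528 bp in that order. It covered the TSS, while the 3 microRNA genes began 8228 to 10386 bp downstream of it, beyond the domain. The nearest coding TSS, of A830005F24Rik, was 32930 bp away and had a signal value of 38.2. The 6720427I07Rik peak also reached a TSS of Gm37238, a non-coding gene outside the set. The mature let-7 sequences (RefSeq, GRCm38.p6) show the shared seed, bases 2 to 8, in capitals.
let-7a-5p: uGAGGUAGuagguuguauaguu
let-7f-5p: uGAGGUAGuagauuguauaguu
let-7d-5p: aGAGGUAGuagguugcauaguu

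Further high values came from genes with quite different neighbours. Gm11205 (59.6 in the replicated list, 64.9 in pool E, 55.3 in pool F) lay 44068 bp from the TSS of Rab11fip4, a gene of endosome recycling, whose own value was 31.8. Snhg12, a host of small nucleolar RNAs, had 58.9, 64.5 and 41.6, and lay 5238 bp from Rab42 (26.8). 1810012K08Rik and Tmem250-ps shared a peak of 58.8, 15326 and 15582 bp from Nacc2 (57.2). RefSeq annotates a coding transcript start under that shared peak.

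C030034I22Rik (58.1, 65.4 in pool E, 54.7 in pool F) stood 21865 bp from Akain1, whose promoter was weaker at 12.1. Snhg20 (57.0) lay 38366 bp from Sec14l1 (55.3), and E130102H24Rik (56.7), the host of Mir101a, 62542 bp from Ak4 (33.5), an adenylate kinase gene. In each of these pairs the lincRNA promoter had the higher value of the list.

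A gene-poor stretch of chromosome 16 held 2 of the 12 strongest promoters. G730013B05Rik (58.3 in the replicated list, 63.7 in pool E, 54.0 in pool F) and Dubr (57.3, 61.7 and 53.5) lay 62652 and 141529 bp from the TSS of Ccdc54, which was unmarked. Dubr is a lncRNA known from myoblast differentiation. Its domain was narrow beside its signal, at 1991 bp in the replicated list, 2351 bp for pool E and 1972 bp for pool F.

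Genes over 100000 bp from any coding TSS were marked less often, at 180 of 1809 (9.95%, 8.65 to 11.4%). After Dubr, the highest of them were 2610035D17Rik (52.1, 58.5 in pool E, 43.4 in pool F), 363918 bp from Slc39a11, and A230028O05Rik (49.5, 56.2 and 44.1), 214464 bp from Lpp. Gm5165 (47.6) and Gm5493 (45.6) followed. Gm5165 has a near-identical copy, and RefSeq lists a coding transcript at its start, so its place in the set rests on the GENCODE type.

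Broad domains were rare among the marked genes. A domain of at least 5000 bp was found at 24 of 731 genes (3.28%, 2.22 to 4.84%), against 12.6% of marked coding genes, and at 4 of the 24 it reached a coding TSS. Neat1, the RNA scaffold of nuclear paraspeckles, had the widest: 29164 bp in the replicated list, 29931 bp for pool E and 23069 bp for pool F, with a signal value of 56.0, 60.8 and 52.6. Its main peak, at chr19:5828753-5852515, ran from -7256 to 16506 bp relative to the TSS, so it covered most of the 20771 bp gene. Frmd8, the nearest coding gene by TSS, had a separate domain of 1942 bp.

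Malat1, another abundant nuclear RNA, lies on the same chromosome, and its domain measured 10788 bp (9816 in pool E, 10767 in pool F) with a signal value of 39.4 (36.7 and 44.2). Gm44946 and Gm44948 shared the second widest domain, 25221 bp, with Nr2f2, the gene of a nuclear receptor, and cannot be told apart from its promoter. Lockd and Gm44238 lay in a domain of 10355 bp that reached Cdkn1b, a cell cycle inhibitor gene; pool E had 10409 bp there, and pool F 3126 bp, where it ended short of Cdkn1b.

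Carmn, a lncRNA known from smooth muscle, had a domain of 12440 bp (12967 in pool E, 12381 in pool F) and a signal value of 36.0 (27.6 and 35.2). Bvht, the neighbouring gene known from cardiac development, had 18.3 (19.2 and 17.5) over 4394 bp. Both have Il17b, which was unmarked, as their nearest coding gene. Lncpint, a p53-induced lncRNA, had 10149 bp and Gm26698, 7769 bp from Irf2bpl, 10141 bp. The last of the 12 widest was 2310001H17Rik, with 9358 bp and the unmarked lymphocyte gene Cd69 as its nearest coding gene.

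**Figure D4:**
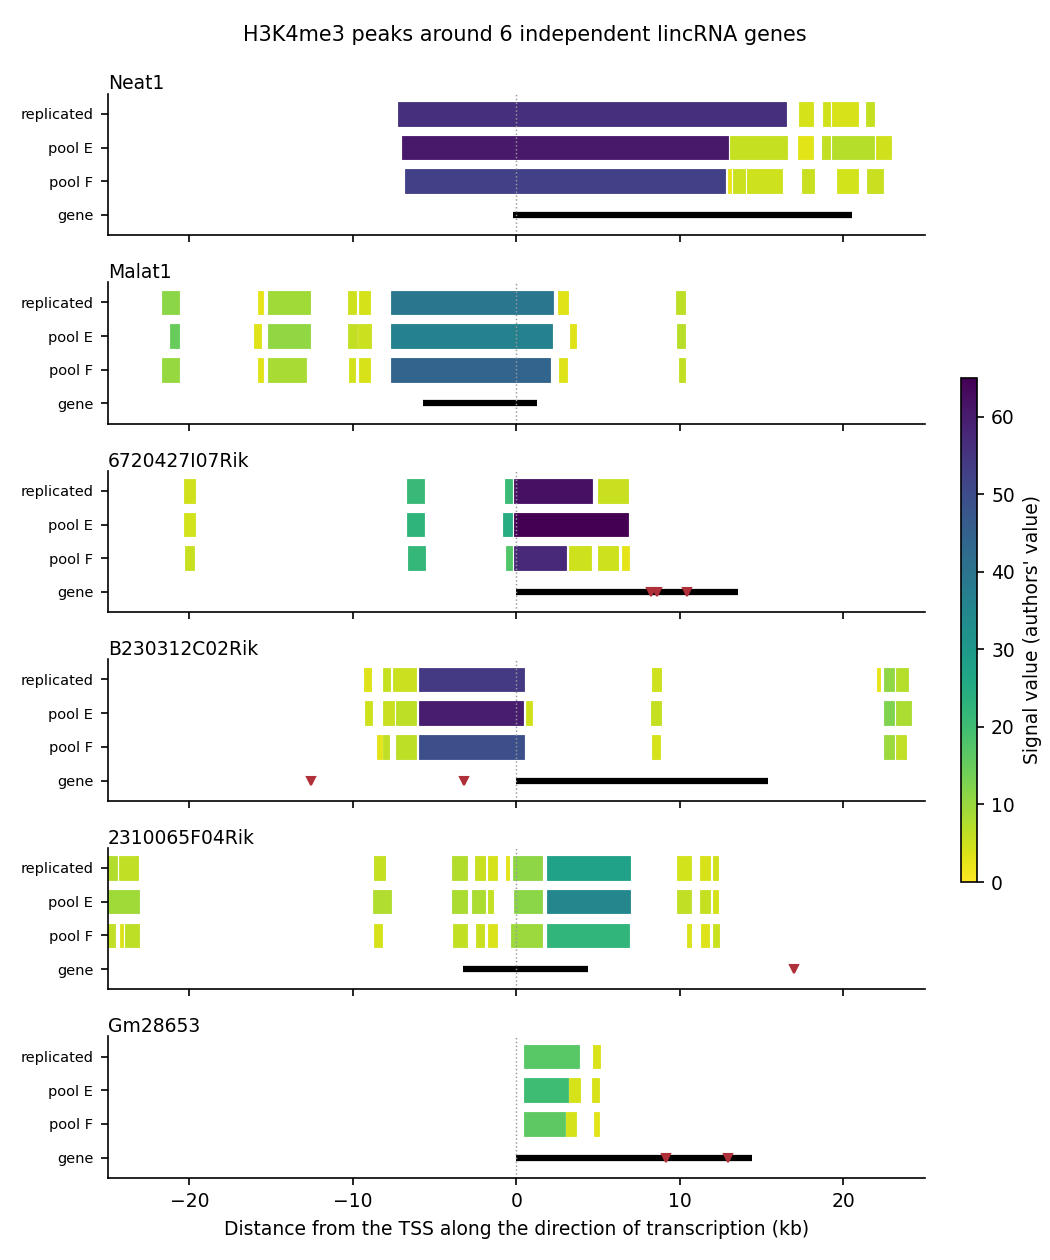
Peaks in the replicated, pool E and pool F lists around 6 independent lincRNA genes, by distance from the annotated TSS that the strongest peak covers or lies nearest to (x axis, kb, along the direction of transcription); colour gives the signal value, black bars the gene, and red triangles genes with a Mir symbol. The layout is alike in both pools, with the main Neat1 peak from -7256 to 16506 bp and the Gm28653 peak starting 462 bp downstream of its TSS.

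At 2310065F04Rik, in the myosin heavy chain cluster, the mark was wide, and weak near the TSS. 2310065F04Rik, known as linc-Myh, lies between Myh3, the embryonic myosin heavy chain gene, and Myh2, that of fast oxidative fibres. Near its TSS the signal value was 11.0 in the replicated list, 11.4 in pool E and 9.78 in pool F. The domain of 10893 bp (7131 in pool E, 10752 in pool F) joined 6 peaks, the strongest of which, at 27.6, began 1863 bp downstream of that TSS. Myh3 was unmarked, and Myh2 and Myh1 had signal values of 9.83 and 9.98. Among the muscle fibre genes looked up, Myh4 included, no value was under 23.2.

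The muscle microRNAs miR-1, miR-206 and miR-133 are known regulators of myogenic differentiation. B230312C02Rik is annotated on the strand opposite to Mir1a-1, and its peak ran from -5971 to 476 bp relative to its TSS, over Mir1a-1 at -3239 to -3163 bp. The signal value was 54.0 (60.0 in pool E, 49.4 in pool F) over a domain of 9776 bp (10266 and 8992), so B230312C02Rik and Mir1a-1 cannot be told apart as the marked unit. Gata5, the nearest coding gene at 51186 bp, had a value of 8.98. Gm28653, which holds Mir206 and Mir133b, was singled out after its values were seen: it had 17.0 (20.1 in pool E, 16.1 in pool F) over 4635 bp (4629 and 3202). Its nearest coding gene Pkhd1 was unmarked. The mature products, with the seed in capitals, are these.
miR-206-3p: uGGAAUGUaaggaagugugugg
miR-133b-3p: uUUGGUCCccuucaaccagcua

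Genes that hold small RNA genes were marked more often than the rest. Of 85 independent lincRNA genes with a miRNA or snoRNA gene inside, 38 (44.7%, 34.6 to 55.3%) were marked, against 15.7% of the others, and the share was 62.2% (23 of 37) where the miRNA had a Mir symbol. The median signal value of the 38 was 18.4. Values differed widely among the hosts: Mir17hg, of the miR-17 to miR-92 cluster, had 45.9 (46.6 in pool E, 46.6 in pool F), Mir155hg 49.0 (52.6 and 46.6), Gm20732, which holds Mir30d, 38.8 (47.4 and 44.2), and Gm49317, which holds Mir100, Mirlet7a-2 and Mir125b-1, 25.0 (27.3 and 22.9). Among the snoRNA hosts Snhg6 had 55.1 (57.5 and 53.4). AC157910.3, which holds the liver microRNA gene Mir122, was unmarked, as were Gm27028, which holds Mir30c-2, and A430106G13Rik, which holds Mir181b-1. The choice of Gm20732, Gm49317, AC157910.3, Gm27028 and A430106G13Rik was made with their values in view.

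Of 26 independent genes on a list of well-studied lncRNAs, 21 (80.8%, 62.1 to 91.5%) were marked, against 16.3% of all independent genes and 38.0% of all autosomal genes. Pvt1, the neighbour of Myc, had 48.6 (52.3 in pool E, 45.4 in pool F). The imprinted genes Meg3 and H19 were marked at a moderate level: Meg3 had 17.1 (16.3 and 17.8) and H19 10.1 (9.77 and 10.8), and the H19 domain measured 5644 bp for pool E but 2035 bp for pool F. Rtl1, the coding gene nearest to Meg3, was unmarked.

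The other well-studied lncRNAs ranged widely. Trp53cor1, a p53 target beside Cdkn1a, had 15.3 (22.3 in pool E, 20.1 in pool F). Hotair, in the HoxC cluster, had 11.5 (13.3 and 10.5) over a domain of 6280 bp. Its nearest coding gene, Hoxc11 at 6697 bp, had 47.8 over a domain of 31600 bp. The Hotair domain ended at position 102951536 and the Hoxc11 peak began at 102952849, so their separation rests on the joined gap of up to 1000 bp. Of the list's genes known from neurons, Mir124a-1hg had 34.0 (36.1 and 32.0), Mir9-3hg 13.0 (15.8 and 11.8) and Rmst 10.5 (11.6 and 9.95), while Mir124-2hg was unmarked. Mir670hg had 44.8 (56.7 and 43.2), Carlr 21.2 (24.2 and 13.6) and Miat 9.35 (9.84 and 9.27). Mirg, Lncbate1, Mirt1 and Gm26917 were unmarked too.

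Most independent genes next to a muscle gene were unmarked. Of 21 such genes, 7 (33.3%, 17.2 to 54.6%) were marked, against 16.2% of the rest. That interval is wide and counts genes that share a peak as separate, so it does not set the shares apart. C130071C03Rik and Gm26803 shared a peak of 38.0 (39.7 in pool E, 37.1 in pool F), 68493 and 76694 bp from Mef2c, a myogenic transcription factor gene with a value of 38.7. Gm49427, 8693 bp from the TSS of Xirp1, a gene of an actin-binding protein, had 35.6 (38.3 and 33.7). Gm35933 near the myoglobin gene Mb had 11.9 (13.0 and 11.5), and Gm33926 near Mef2a 9.51 (13.0 and 9.06).

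The weakest of the 7 were seen in pool E but not in pool F: Gm44127 near Dysf, a membrane repair gene, had 3.84 in the replicated list and 5.78 in pool E, and 2310067P03Rik near Mef2c 3.06 and 5.27. The 14 unmarked genes included 1700025L06Rik, 27101 bp from Myod1, the master regulator gene of myogenesis, which itself had a value of 31.7 over 8306 bp. The 3 neighbours of Myom2, a gene of the sarcomeric M-band, were unmarked as well, although Myom2 itself had a value of 34.4.

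Distance to coding genes went with the marked share. It was 26.4% (21.7 to 31.6%) at 5000 to 10000 bp from the nearest coding TSS, 20.8% at 20000 to 50000 bp, 14.1% at 100000 to 200000 bp and 3.09% (1.64 to 5.77%) beyond 500000 bp. Among low-class genes alone the share went from 19.7% to 1.81% over the same bins; the order was thus also seen within 1 CpG class. The median distance was 44330 bp at marked and 79144.5 bp at unmarked genes.

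**Figure D5:**
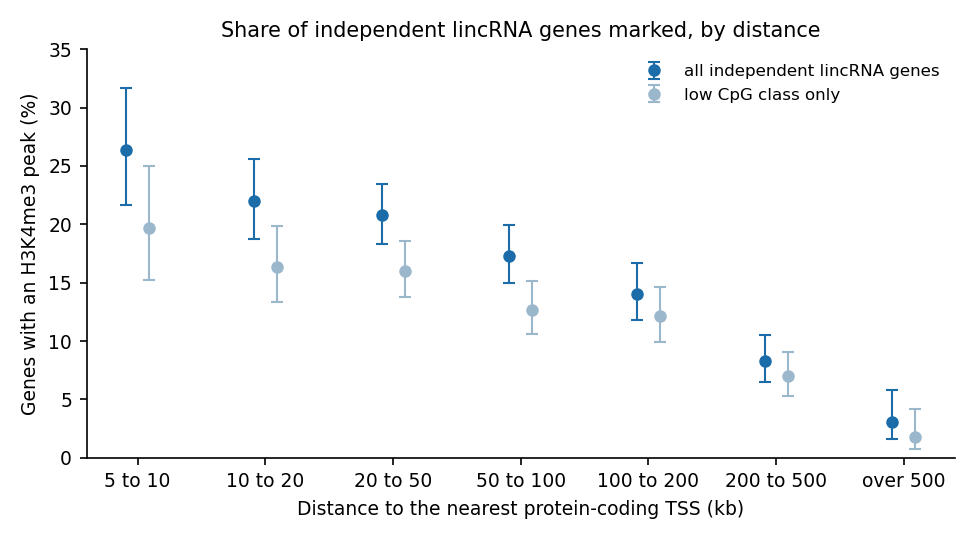
Share of independent lincRNA genes with an H3K4me3 peak in the replicated list (y axis, percent) by distance from their nearest protein-coding TSS (x axis, kb), for all of them and for the low CpG class only; points show shares and lines 95% Wilson intervals. The share is 26.4% in the nearest bin and 3.09% in the farthest.

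The state of the nearest coding gene also went with the mark. That gene was marked at 633 of 731 marked lincRNA genes (86.6%, 83.9 to 88.9%) and at 81.8% (80.6 to 83.0%) of unmarked ones. Read the other way, 17.0% of lincRNA genes with a marked neighbour were marked and 12.5% of those with an unmarked one, and in the low class 13.3% and 8.76%. In the intermediate class the shares were 58.7% and 53.1%, and in the high class 33 of 35 (94.3%, 81.4 to 98.4%) and 9 of 14 (64.3%, 38.8 to 83.7%), whose intervals overlapped. With only the TSS at the 5′ end of each gene, 80.5% of marked lincRNA genes had a marked nearest coding gene. For lincRNA genes that do not start inside their nearest coding gene, the side and strand of that gene went with shares of 15.1 to 17.1%. Of those that start inside it, 19 of 86 (22.1%, 14.6 to 31.9%) were marked on the opposite strand and 4 of 14 (28.6%, 11.7 to 54.6%) on the same strand. Genes inside any coding gene were marked in 20.6% (33 of 160).

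Annotation features went with the mark to different degrees. Genes with a symbol of their own were marked in 44.6% (29 of 65), against 14.3% of genes with Gm names and 19.1% with Rik names. Those with a symbol that starts Mir or Snhg, or ends hg, were marked in 8 of 11. Mirt1, unmarked, is among the 11 by its symbol but holds no small RNA gene. The share was 13.8% with 1 TSS and 37.5% with 4 or more, while it differed little with the number of exons, from 17.9% with 1 to 15.5% with 4 or more. Where under 25% of the TSS window was repeat-masked, 19.5% were marked, and where 75% or more was, 1.91%. Genes with a near-identical copy were marked in 8.57% (15 of 175), against 16.6% of those without.

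Short promoter strings were counted on both strands in the 300 bases around the 5′ end of each gene, as a description of letters and not of binding. GGGCGG, the GC box, was in 23.0% of marked and 5.23% of unmarked independent genes, in 43.7% of coding genes and 23.6% of all autosomal genes. CCGGAAG, an ETS-type string, was in 7.39%, 2.68%, 11.0% and 6.11%. TATAAA was in 13.0%, 18.1%, 12.7% and 17.2%. The E-box CAGCTG was in 20.9%, 18.4%, 15.5% and 15.3%, and the MCAT string CATTCCT in 6.29%, 7.25%, 4.92% and 5.82%. These coding shares cover marked and unmarked genes alike. Marked coding genes alone held GGGCGG in 58.5%, CCGGAAG in 14.8%, TATAAA in 7.77%, CAGCTG in 15.4% and CATTCCT in 4.21%.

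Within the low CpG class, GGGCGG was still in 13.5% of marked (10.8 to 16.7%) and 4.87% of unmarked genes (4.22 to 5.62%), and CAGCTG in 23.6% (20.1 to 27.4%) and 18.2% (16.9 to 19.4%). CCGGAAG was in 5.21% (3.61 to 7.48%) and 2.70% (2.22 to 3.28%). TATAAA went the other way, with 13.3% of marked (10.7 to 16.5%) and 18.3% of unmarked genes (17.0 to 19.6%). For these 4 strings the intervals did not overlap, and for CATTCCT, at 6.95% and 7.29%, they did.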

How the data were processed

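Per the labels, the 4 libraries were 2 technical libraries of each of 2 pools, with fragments of 200 to 600 bp. The authors deposited 4 narrowPeak lists on mm10: 1 of replicated peaks (41955), and 3 of pseudoreplicated peaks, for each pool and for the pools combined. The 2 libraries of a pool share 1 list, so no value per library exists. Each peak's deposited signal value is the authors' own; its reference was not stated. The deposited −log10 q-value served as a filter in 1 alternative, the deposited summit offset gave the summit, and the deposited display score and p-value were not used. Aligner and peak caller are not given in the sources used here. Depth is unknown.

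Genes and TSSs came from GENCODE M21, sequences from RefSeq GRCm38.p6. A peak at most 1000 bp from a TSS made a gene marked; its signal value is the highest of those peaks and its width that of the widest domain (peaks joined at gaps of up to 1000 bp), so these can come from different TSSs. Shares have 95% Wilson intervals (scipy 1.17.1, Python 3.11.15). Near-identical copies were windows of 500 bp on each side of a TSS with a second alignment over at least 90% of the window at 95% identity (minimap2 2.31). The search covered the autosomes, X and Y, without unplaced scaffolds. The marking and joining were tested on simulated data. No test was run, since genes are not replicates and the series has 1 condition.

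Named are the 12 strongest genes by signal value, the 12 widest by domain, the 6 highest of the low CpG class, the 5 highest in each pool only, the 5 highest over 100000 bp from a coding TSS, the members of a list of known lncRNAs, and genes whose nearest coding gene is on a list of 75 muscle genes. The members, lists and rules were chosen with earlier results of these data known. Alternatives were the TSS window, the isolation distance, the TSSs used, the q-value, the peak list, each pool alone, the joined gap, the overlap and genes without copies; a RefSeq-based isolation was added after seeing the data.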

Additional observations from a re-analysis of the deposited data

How the results depend on the processing

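Over the alternatives tried, the 731 marked genes of the replicated list numbered from 490 with a TSS window of 0 bp to 894 with 2500 bp, and the 657 of both pools from 443 to 801. Their marked share was 10.9% and 19.9% under those windows, and the coding share 67.8% and 71.2%, and 66.5% with only the 5′ TSSs. The median domain width was 1366 bp with a window of 0 bp, 931 bp with gaps of 0 bp joined and 1089 bp with 2500 bp. With each pool alone, the count was 687 to 740, the marked share 15.3 to 16.5%, the coding share 69.6 to 70.0% and the median width 976 to 1057 bp. Leaving out genes with a RefSeq coding start within 5000 bp, chosen after seeing the data, gave 681 genes (15.6%). The median signal value was 14.5 with a window of 0 bp. Genes whose domain reached a coding TSS numbered 8 with a window of 2500 bp, 1 with no gaps joined and 11 with gaps of 2500 bp. Of 130 recomputed values 21 moved beyond their limits, and the causes of these moves were not tested. The limits were not alike for counts and shares. With a window of 0 bp, the count of 490 stayed within its limit, while the share of 10.9% from the same genes did not. Some values could not move, such as the coding share of 70.0% with isolation at 2500 or 10000 bp, a rule for lincRNA genes only. The tally of 21 thus cannot show how stable the results are. Copies were found for the lincRNA genes only, so the coding share was not recomputed without copies. No paired analysis was possible because each pool has 1 list and no result comes from a test. Unknown depth limits what the absence of a peak shows.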

Other observations

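Developmental transcription factor genes were the nearest coding neighbour of 252 independent lincRNA genes, of which 45 (17.9%, 13.6 to 23.1%) were marked, against 16.2% of the rest. Besides the genes described above, the highest were AC121263.1 (44.3 in the replicated list), 145235 bp from Tcf4, 1700064M15Rik (40.9), 64392 bp from Foxn3, and 2410080I02Rik (36.2), 6326 bp from Klf9. 4632428C04Rik, 55717 bp from Hes1, a Notch target gene, had 33.4 (38.3 in pool E, 29.4 in pool F). Near the HoxA cluster, Halr1 had only 4.50 (4.19 and 3.80). In the low CpG class the marked share was 12.4% with such a neighbour and 12.5% without. The choice of these genes was made with their values in view.

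By chromosome, the marked share ranged from 8.09% (5.24 to 12.3%) on chromosome 14 to 24.6% (19.2 to 31.1%) on chromosome 17.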
